A study of Mus musculus with 7 samples.

Results

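The genes Col4a1, Col4a2, Lama1, Lamb1, Lamc1, Sparc and Dab2 were followed through ChIP-seq peak lists of 2 mouse stem cell types, embryonic (ESCs) and extraembryonic endoderm (XENs). ChIP-seq sequences the DNA that an antibody pulls down with its target protein, and a peak is a stretch where that DNA piles up. The members are the peaks of any list that overlap 6 windows, each a gene with its flanks. Col4a1 and Col4a2 share a window of 300 kb on chromosome 8, and the others are Lama1 on chromosome 17 (180 kb), Lamb1 on chromosome 12 (120 kb), Lamc1 on chromosome 1 (170 kb), Sparc on chromosome 11 (70 kb) and Dab2 on chromosome 15 (200 kb). The windows cover 1.04 Mb and hold 70 of the 63934 peaks of the 5 lists, namely 44 of 52296 for Zfp281 in ESCs, 18 of 3449 for Zfp281 in XENs and 8 of 8184 for Suz12 in ESCs. The XEN Suz12 list (4 peaks) and the XEN H3K27me3 list (1 peak) have none there. All positions are mm9, the build named in the submitters' processing notes.

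Zfp281 is a zinc finger transcription factor of pluripotent cells. Suz12 is a core subunit of Polycomb repressive complex 2, which places the repressive mark H3K27me3 on developmental genes. All cells were of strain 129S1, no treatment is named, and both types were grown without feeder cells on gelatin, ESCs with serum and leukemia inhibitory factor and XENs in medium conditioned by mouse embryonic fibroblasts. The 7 samples are 1 library each of Zfp281, Suz12 and input DNA in both cell types and of H3K27me3 in XENs, and the 2 inputs were not analysed here. With 1 library per group no difference between cell types has a replicate check, and no p-value is given. Peak lists hold no expression values, so the cell types could not be checked by their marker genes.

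A basement membrane is a thin sheet of extracellular matrix under epithelia. Laminins assemble from an alpha, a beta and a gamma chain and polymerise at the cell surface, and type IV collagen forms a second network that stabilises the sheet. Parietal endoderm, a derivative of the extraembryonic endoderm lineage, secretes a very thick one called Reichert's membrane. Col4a1 and Col4a2 encode the chains of the major type IV collagen, and Lama1, Lamb1 and Lamc1 encode the chains of laminin-111. Sparc encodes a collagen-binding matrix glycoprotein. Dab2 encodes an endocytic adaptor rather than a matrix protein, and is a marker of the same lineage.

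Promoter sequences are shown for Col4a2, Lamb1 and Sparc, the genes whose windows held the strongest Suz12 peaks or the strongest XEN Zfp281 peaks. They come from RefSeq, build GRCm38.p6, whose positions cannot be set against the mm9 peaks, so where these promoters lie relative to any peak was not analysed here. Each line gives 250 bases upstream of the annotated start, 5′ to 3′ on the strand of the gene, at chr8:11312555-11312804 (plus strand) for Col4a2, chr12:31265043-31265292 (plus strand) for Lamb1 and chr11:55420081-55420330 (minus strand) for Sparc. Capitals mark the word CCCTCCCC, the C-rich strand of a G-rich element known for Zfp281.
Col4a2: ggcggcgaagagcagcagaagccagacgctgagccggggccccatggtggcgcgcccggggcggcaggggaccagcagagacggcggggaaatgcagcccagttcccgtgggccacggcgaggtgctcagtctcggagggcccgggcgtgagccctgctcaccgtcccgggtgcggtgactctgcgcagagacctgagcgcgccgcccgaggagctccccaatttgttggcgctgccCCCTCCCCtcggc
Lamb1: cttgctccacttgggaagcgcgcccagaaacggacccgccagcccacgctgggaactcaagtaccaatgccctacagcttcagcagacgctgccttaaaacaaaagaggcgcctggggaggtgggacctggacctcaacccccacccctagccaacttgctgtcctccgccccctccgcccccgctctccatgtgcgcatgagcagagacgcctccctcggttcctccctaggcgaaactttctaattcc
Sparc: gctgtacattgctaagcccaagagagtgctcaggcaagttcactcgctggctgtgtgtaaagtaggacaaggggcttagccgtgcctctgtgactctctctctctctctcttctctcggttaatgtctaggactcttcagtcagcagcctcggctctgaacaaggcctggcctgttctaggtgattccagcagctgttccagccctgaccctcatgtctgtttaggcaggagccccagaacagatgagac
The promoters searched had 300 bases, the 250 upstream and 50 after the start. Those of Col4a1 and Col4a2, genes transcribed away from each other, shared 78 bases on opposite strands. The single CCCTCCCC match of each lay in those shared bases, upstream of the Col4a2 start but after the Col4a1 start. CCCTCCCC and a longer word, the same letters with 1 more C at each end, were searched on both strands, so any match of the longer one contains the shorter. The shorter word was present in 10.8% of all 32851 promoters and the longer in 3.27%. Of the 7 genes, 5 were matched to a promoter. Col4a1 and Col4a2 held the shorter word, Lamb1, Sparc and Dab2 did not, and none of the 5 held the longer one. Among 10 other genes of the matrix or of collagen processing (the latter P4ha2 and Serpinh1), 8 were matched. Nid1 (nidogen, which links laminin to collagen) and Lama5 (another laminin alpha chain) held the shorter word. None of the 8 held the longer one. G and C made up 74% and 73.7% of the Col4a1 and Col4a2 promoters, against a median of 52.7% over all promoters. In Lamb1, Sparc and Dab2 they made up 37.7 to 63.7%. Among the other genes it was 64.7% in Nid1 and 72.7% in Lama5, and 44 to 83.3% in those without the word. The part of base composition in the matches was not tested. A match describes the letters only.

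Pooled over the 6 windows, Zfp281 peaks were denser than in the whole list in both cell types, by more in XENs, with Sparc and Lamb1 high in both and Lama1 and Dab2 below the whole list in ESCs. In ESCs the windows held 44 Zfp281 peaks, or 42.3 per Mb, against 20.4 per Mb over chromosomes 1 to 19 and X. In XENs they held 18, or 17.3 per Mb, against 1.34 per Mb. The ratio of ESC to XEN peaks was therefore 2.44 in the windows (exact 95% interval 1.38 to 4.49), while it was 15.2 over the whole lists. All intervals given are for counting error alone, and peaks close to each other may depend on each other. For Suz12 in ESCs the windows held 7.69 peaks per Mb against 3.19 over the same chromosomes. The windows were drawn around genes, and may hold peaks that belong to neighbours such as Irs2, Rab20, Dld or Atox1, while the whole list includes gene-poor regions. Density also differed between chromosomes. Chromosome 11, which holds Sparc, had the most Zfp281 peaks per Mb of all, 36.0 in ESCs and 2.85 in XENs. Chromosome 12, which holds Lamb1, had 16.4 and 1.13.

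**Figure D1:**
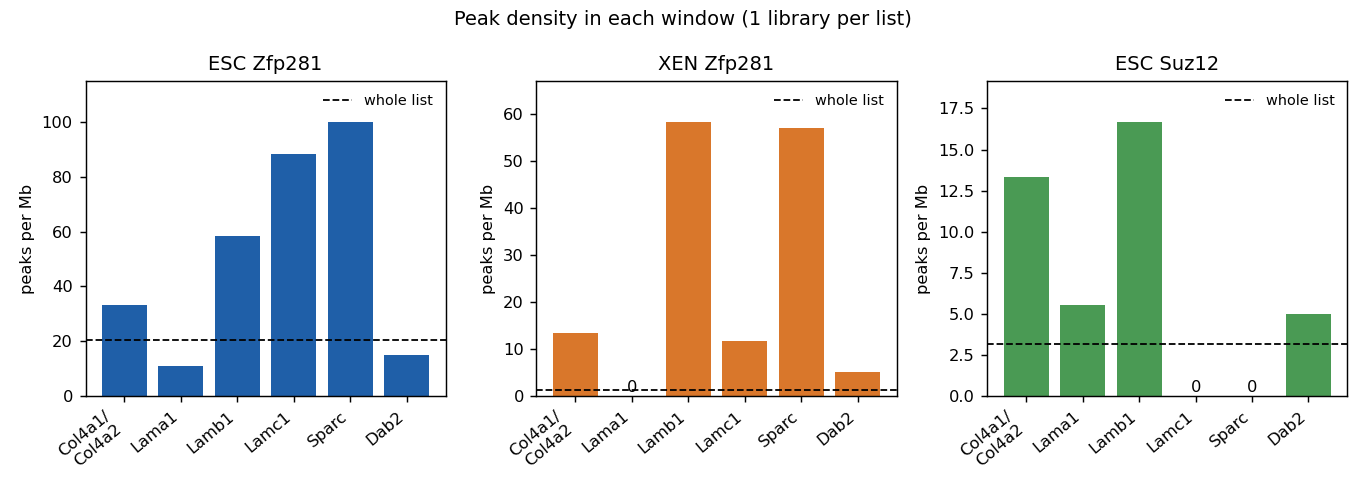
Peaks per Mb (y axis) in each of the 6 windows (bars) for the 3 lists with peaks there, with the dashed line at the density of the whole list. Lamb1 and Sparc stand highest for Zfp281 in XENs with 58.3 and 57.1 peaks per Mb, Lama1 has none in XENs, and Lamc1 and Sparc have no Suz12 peak.

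The genes differed widely from one another. By ESC Zfp281 density the order was Sparc (100 per Mb), Lamc1 (88.2), Lamb1 (58.3), Col4a1 and Col4a2 (33.3), Dab2 (15) and Lama1 (11.1). By XEN Zfp281 density it was Lamb1 (58.3), Sparc (57.1), Col4a1 and Col4a2 (13.3), Lamc1 (11.8), Dab2 (5) and Lama1 (0). These counts are small and there is no spread over samples, so neighbours in these orders are not shown to differ. To give each count a background, chromosomes 1 to 19 and X were cut into tiles of each window's length. At least 1 ESC Zfp281 peak was present in 48.3% of tiles of 70 kb (the length of the Sparc window), in 58.9% of 120 kb (Lamb1), 65.6% of 170 kb (Lamc1), 67.0% of 180 kb (Lama1), 68.9% of 200 kb (Dab2) and 75.9% of 300 kb (Col4a1 and Col4a2). All 6 windows held one.

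At least 1 XEN Zfp281 peak was present in 7.18%, 11.1%, 14.6%, 15.3%, 16.5% and 22.0% of tiles in the same order of lengths, and in 5 of the 6 windows. As many XEN peaks as at Lamb1 were found in 0.0327% of the 120 kb tiles (7 of 21393), and as many as at Sparc in 0.153% of the 70 kb tiles. The share with as many was 2.32% for Col4a1 and Col4a2 and 5.04% for Lamc1. For ESC Zfp281 the share of tiles with as many peaks was lowest for Lamc1 (4.56%) and Sparc (4.83%), and it was 11.7% for Lamb1, 23.0% for Col4a1 and Col4a2, 43.6% for Dab2 and 50.8% for Lama1. The Sparc and Lamc1 windows had no ESC Suz12 peak, and 12.6% and 25.4% of tiles of their lengths had one. Lama1 and Dab2 had 1 each (26.6% and 28.6% of tiles had one). Lamb1 had 2 (19.3% of tiles had one and 10.3% as many), and Col4a1 and Col4a2 had 4 (37.9% had one and 7.63% as many).

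**Figure D2:**
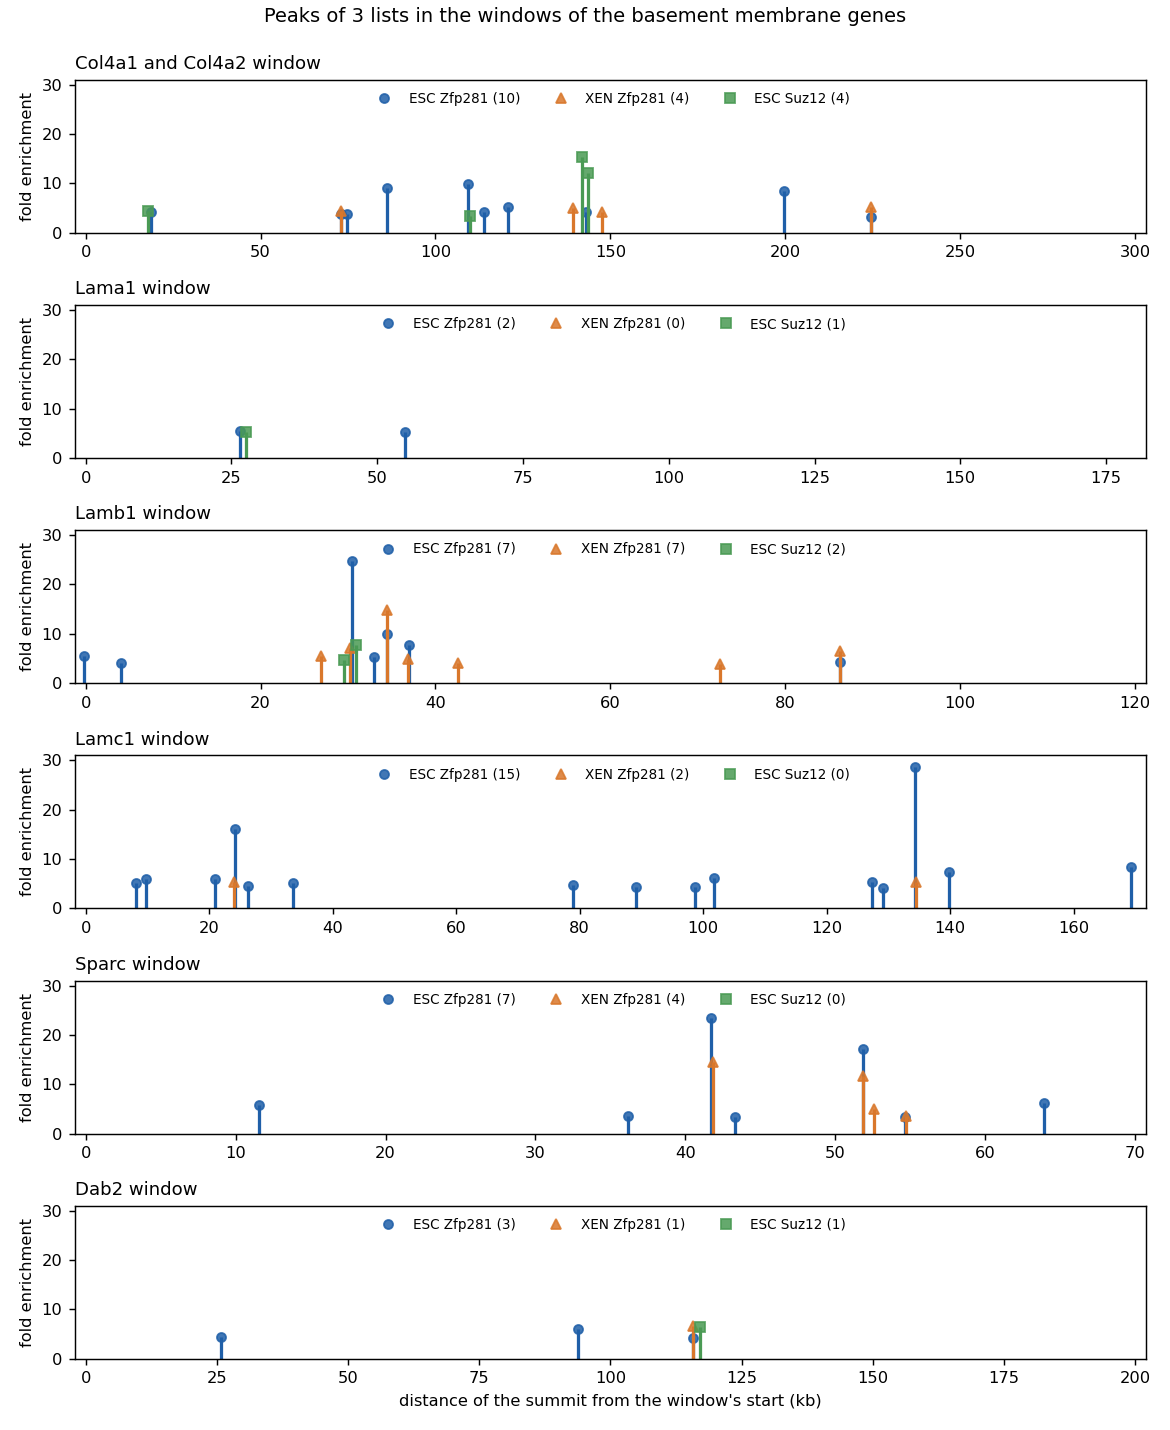
Fold enrichment (y axis, the authors' value for each peak) against the distance of the peak's summit from the window's start in kb (x axis) for ESC Zfp281 (circles), XEN Zfp281 (triangles) and ESC Suz12 (squares), with the number of peaks of each list in brackets. The tallest circles are single sites in Lamc1 (28.6-fold), Lamb1 (24.7-fold) and Sparc (23.5-fold), and the tallest triangles lie in Lamb1 (14.8-fold) and Sparc (14.6-fold).

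Most ESC Zfp281 peaks at these genes were of ordinary strength, while most XEN Zfp281 peaks stood in the lower-scoring part of their list. The authors' fold enrichment, the height of a peak over its local expected level, is used here to describe peaks and to order them within a list. It ranged from 3.18 to 28.6 with a median of 5.23 for the 44 ESC peaks, against a median of 5.48 in the whole list. For the 18 XEN peaks it ranged from 3.56 to 14.8 with a median of 5.19, against 6.35. Of the ESC peaks, 11 lay in the highest-scoring 25% of the whole list, 10 in the next 25%, 16 in the next and 7 in the lowest-scoring 25%. Of the 18 XEN peaks, 6 lay in the higher-scoring 50% of the XEN list, all of them at Lamb1 and Sparc. The score ranks the peaks of a list by their q-value. A few strong sites thus stood among many weaker ones.

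A XEN Zfp281 peak shared at least 1 bp with 12 of the 44 ESC Zfp281 peaks. That is 27.3%, with a 95% Wilson interval from 16.4 to 41.9%, against 5.10% of the whole list. This share rises with the number of XEN peaks in the windows. It is therefore not a result separate from the ratio of ESC to XEN peaks, 2.44 in the windows and 15.2 over the whole lists. The strongest sites were among the shared ones. When the ESC list was shortened to its 3449 highest-scoring peaks, 4 were left in the windows, 2 at Lamc1, 1 at Lamb1 and 1 at Sparc, and all 4 met a XEN peak. In the whole list 30.3% of peaks of that strength did. In the highest-scoring 25% of the list 6 of 11 ESC peaks met a XEN peak, against 15.0% in the whole list. In the lowest-scoring 25% 4 of 7 did, against 0.964%, and these were 2 at Col4a1 and Col4a2, 1 at Lamb1 and 1 at Dab2. In the classes between, 1 of 10 (3.01% in the whole list) and 1 of 16 (1.43%) did, so sharing at these genes did not follow the ESC score step by step.

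Read from the XEN side, 12 of 18 peaks, or 66.7% (43.8 to 83.7%), met an ESC Zfp281 peak. In the whole XEN list 80.8% did, a value inside that interval. The other 6 lay at Lamb1 (3 peaks), Col4a1 and Col4a2 (2 peaks) and Sparc (1 peak). Their fold ranged from 3.79 to 5.42 with a median of 4.5, against 3.56 to 14.8 with a median of 5.9 for the 12 shared peaks. At the 12 shared sites the summits of both cell types lay 9 to 242 bp apart, with a median of 50.5 bp, against 56 bp over the whole lists.

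**Figure D3:**
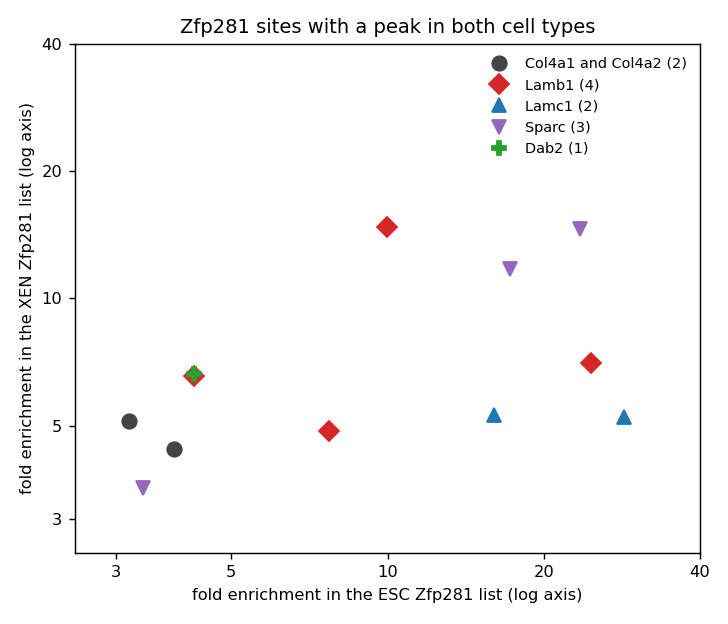
Fold enrichment in the XEN list (y axis) against that in the ESC list (x axis), both on log axes, for the 12 sites with a Zfp281 peak in both cell types, by window. The folds come from separate lists and are not on one calibrated scale. The Sparc and Lamc1 sites strongest in ESCs part in XENs, where the 2 Sparc sites have 14.6 and 11.7-fold and the 2 Lamc1 sites 5.24 and 5.30-fold enrichment.

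At Col4a1 and Col4a2 the main feature was a pair of ESC Suz12 peaks with XEN Zfp281 peaks to either side of it. The Suz12 peaks ran from 11310923 to 11312384 (15.3-fold, rank 803 of 8184) and from 11313108 to 11314812 (12.1-fold, rank 990), with a gap of 723 bp. They rested on 104 and 101 tags at the summit, where the level expected without enrichment was 5.22 and 6.78 tags. A tag is a sequenced fragment, and these numbers were computed from the fold and p-value of each peak. They were the strongest Suz12 peaks of all the windows. In the gap, and over 150 bp of the second Suz12 peak, lay an ESC Zfp281 peak of 4.10-fold (11312622 to 11313257, 20 tags, 4.12 expected).

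No XEN Zfp281 peak overlapped that pair. One XEN peak ended 1360 bp before it (11309180 to 11309562, 5.09-fold, 30 tags, rank 2347 of 3449). Another began 2480 bp after it (11317293 to 11317738, 4.11-fold, 29 tags, rank 2957). Neither met an ESC Zfp281 peak. The nearest ESC Zfp281 peak to both was the one in the gap, 3059 and 4035 bp away. The other 2 XEN peaks of this window, with ranks 2988 and 2681, met weak ESC peaks. One had 4.40-fold enrichment in XENs and 3.87-fold in ESCs (11242815 to 11243108 in XENs), and the other 5.14 and 3.18-fold (11394221 to 11394701 in XENs). The 3 ESC Zfp281 peaks of this window with the highest score had 9.80-fold (11279095 to 11280147), 9.02-fold (11255483 to 11256593) and 8.55-fold (11369258 to 11369970) enrichment. None of these 3 met a XEN peak, and their nearest XEN peaks were 29032, 12374 and 24250 bp away. The first of them contained a weak Suz12 peak of 450 bp (3.37-fold). A further Suz12 peak (11187663 to 11188730, 4.39-fold) overlapped an ESC Zfp281 peak of 4.14-fold by 798 bp.

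**Figure D4:**
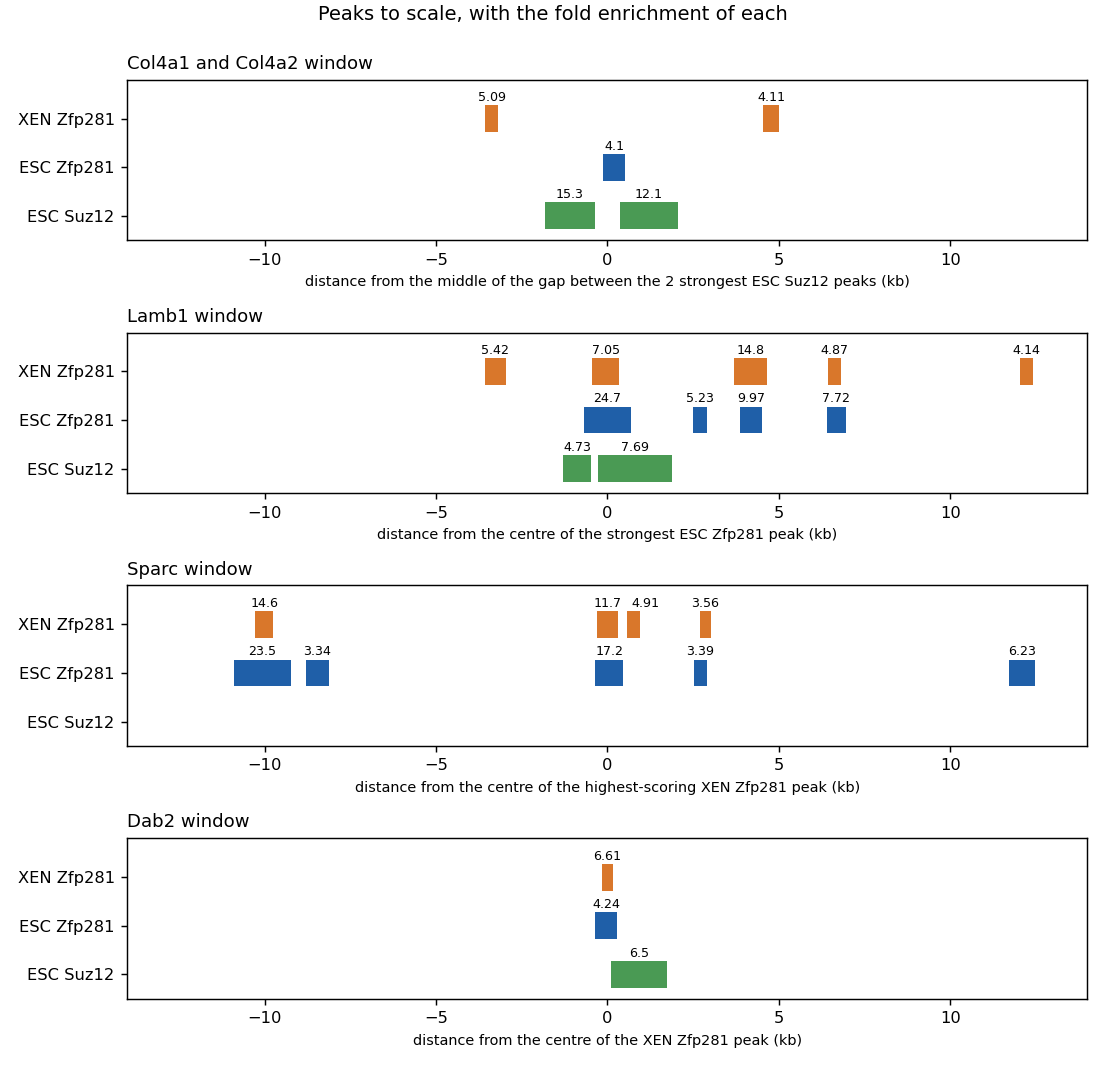
Peaks drawn to scale along the x axis (distance in kb from the peak or gap named under each panel) for ESC Suz12, ESC Zfp281 and XEN Zfp281, with the fold enrichment of each peak above it. At Col4a1 and Col4a2 the XEN peaks (5.09 and 4.11-fold) lie outside the Suz12 pair, and at Lamb1 the XEN peak of 14.8-fold lies beside the strongest ESC site. All 3 lists meet at that ESC site of Lamb1 and at Dab2.

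Of the laminin genes, Lama1, the alpha chain, had the fewest peaks. The ESC Zfp281 list held a peak of 5.48-fold from 68046299 to 68046685 (21 tags, 3.01 expected) and one of 5.23-fold from 68074676 to 68075014 (20 tags). An ESC Suz12 peak of 5.22-fold (68046994 to 68047902, 35 tags) began 308 bp after the first. The XEN Zfp281 list held none, and tiles of this length held one in 15.3% of cases.

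Lamb1, the beta chain, had as many Zfp281 peaks in XENs as in ESCs, 7 in each, a ratio of 1.00 (0.299 to 3.34). An ESC peak among these (31919356 to 31920049, 5.52-fold) only crossed the window's edge, with its summit outside. The XEN peak nearest to it, 4958 bp away, lay outside the window. Of the 7 XEN peaks, 5 lay within 16.0 kb. The order of strength differed between the cell types. In ESCs the highest-scoring site lay from 31949653 to 31951013 (24.7-fold, 98 tags, 3.01 expected, rank 1846), and the next from 31954195 to 31954844 (9.97-fold, 39 tags, rank 11652). In XENs the order of these sites was the other way round. The peak at the second site ran from 31954013 to 31954997 with 14.8-fold enrichment (96 tags, 5.36 expected), rank 76 of 3449, and the peak at the first site from 31949892 to 31950671 with 7.05-fold (43 tags, 5.05 expected), rank 1032. The ESC peak that followed by score (31956737 to 31957282, 7.72-fold) also met a XEN peak (4.87-fold).

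The Lamb1 site strongest in ESCs was overlapped by 2 Suz12 peaks, which lay 217 bp apart. A Suz12 peak of 7.69-fold (31950068 to 31952203, 57 tags) overlapped it by 946 bp, and one of 4.73-fold (31949042 to 31949850, 40 tags) by 198 bp. The first of these Suz12 peaks also overlapped the XEN Zfp281 peak there, by 604 bp. The XEN peak of 14.8-fold began 1809 bp after that Suz12 peak and met none. The last shared site had 6.55-fold enrichment in XENs and 4.24-fold in ESCs (32006062 to 32006402 in XENs). The XEN peaks without an ESC Zfp281 peak had 5.42-fold (31946757 to 31947381), 4.14-fold (31962359 to 31962731) and 3.79-fold (31992319 to 31992661) enrichment, and their nearest ESC peaks were 2271, 5076 and 13269 bp away.

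Lamc1, the gamma chain, had more Zfp281 peaks in ESCs than in XENs, but was denser than the whole list in both. It had 88.2 peaks per Mb against 20.4 in ESCs, and 11.8 against 1.34 in XENs. Its window held 15 ESC Zfp281 peaks, the most of any, and 2 XEN peaks, a ratio of 7.5 (1.74 to 67.6, an interval that includes the 15.2 of the whole lists), and no Suz12 peak. The nearest ESC Suz12 peak lay 244 kb from any of them. The ESC peak from 155173841 to 155175174 was the strongest member of all, with 28.6-fold enrichment, 173 tags where 5.09 were expected, and rank 481. The next (155063541 to 155064532) had 16.0-fold and 87 tags. Both XEN peaks lay on these 2 sites, with 5.24-fold (32 tags, rank 2066) and 5.30-fold (22 tags, rank 2829). The next ESC peak by score (155179486 to 155180590, 7.38-fold) and the remaining 12 (4.18 to 8.39-fold) had no XEN peak.

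Sparc had strong Zfp281 peaks in both cell types, and the nearest ESC Suz12 peak was 167 kb away from them. Its ESC peak from 55230961 to 55232617 had 23.5-fold enrichment (98 tags, 3.22 expected, rank 1933), and the one from 55241499 to 55242305 had 17.2-fold (68 tags, 3.01 expected, rank 4397). Both had a XEN peak, from 55231580 to 55232102 with 14.6-fold (69 tags, 3.60 expected, rank 183) and from 55241554 to 55242149 with 11.7-fold (85 tags, 6.14 expected, rank 166). In XENs the score put the second site first, although its fold was the lower of the pair. A XEN peak of 4.91-fold (55242424 to 55242796, 42 tags) lay 118 bp from the second ESC peak, and one of 3.56-fold (55244538 to 55244870) met an ESC peak of 3.39-fold. The next ESC peak by score (55253551 to 55254318, 6.23-fold) had no XEN peak. All 4 XEN peaks lay within 13.3 kb.

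Dab2 had weak Zfp281 peaks in ESCs and a single site where all 3 lists met, as they also did at Lamb1. The ESC peak there (6335452 to 6336080) had 4.24-fold enrichment with 16 tags, the lowest score of the 3 in the window, and the XEN peak inside it (6335637 to 6335970) had 6.61-fold with 26 tags, where 2.89 were expected. A Suz12 peak of 6.50-fold (6335914 to 6337530, 44 tags) overlapped the ESC peak by 167 bp and the XEN peak by 57 bp. The other ESC peaks had 5.98-fold (6313480 to 6313956) and 4.49-fold (6245685 to 6246059) enrichment and no XEN peak.

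Across the windows, Suz12 met 5 of the 44 ESC Zfp281 peaks, or 11.4% (4.95 to 24.0%). Over the whole list it met 7.77%, a value inside that interval. They lay at Col4a1 and Col4a2 (3 peaks), Lamb1 and Dab2. Without the Col4a1 and Col4a2 window the share was 5.88%, and without the Lamc1 window 17.2%. In the other direction 6 of the 8 Suz12 peaks met a Zfp281 peak, or 75% (40.9 to 92.9%), and 45.8% of the whole list, also inside the interval. Suz12 of ESCs met 2 of the 18 XEN peaks, those named above at Lamb1 and Dab2, and 5.13% of the whole XEN list. The XEN Suz12 list has 4 peaks in the whole genome, so its lack of peaks at these genes is not specific to them.

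The level expected without enrichment differed between the windows. In the ESC Zfp281 list, on chromosomes 1 and 8 (Lamc1, Col4a1 and Col4a2) it stood above its lowest value, 3.01 tags, at all 25 ESC peaks, with a median of 4.51. In the other 4 windows it did so at 7 of 19 peaks, with a median of 3.01. Over whole chromosomes it was raised at 93.3% of the peaks of chromosome 1 and 94.2% of those of chromosome 8, against 55.8% of the whole list. In the XEN list it stood above its lowest value, 2.89 tags, at 17 of the 18 peaks, the exception being Dab2, and at 81.9% of the whole list. At the 7 Lamb1 peaks its median was 4.91 tags, equal to the median of chromosome 12, where 97.7% of peaks were raised, against a median of 3.78 in the whole list. At the 4 Sparc peaks the median was 6.14 tags. The part of this level in the peak counts was not tested. Without the Lamc1, Col4a1 and Col4a2 windows the ratio of ESC to XEN peaks was 1.58, from 19 and 12 peaks.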

How the data were processed

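ChIP-seq peaks were taken as the authors deposited them, 1 list per immunoprecipitated library, in 10 columns without a header. Each peak has a score, a fold enrichment (a ratio over the expected level) and the −log10 of its p-value and q-value, all deposited by the authors. In all 5 lists the score was the −log10 q-value multiplied by 10 and truncated to a whole number. FastQC 0.10.1, Bowtie2 2.3.4, SAMtools 0.1.19 and build mm9 are named in the submitters' processing notes. The peak caller, its control and the treatment of duplicate reads are not given in the sources used here. The lowest deposited −log10 q-value was 1.31 to 1.53 in the 3 lists used and 14.1 and 16.9 in the XEN Suz12 and H3K27me3 lists.

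Peaks overlapping a window by at least 1 bp were counted with Python 3.11.15 and pandas 2.3.3. Densities of whole lists were taken over 2568 Mb, from the first to the last peak of each chromosome. Shares carry 95% Wilson intervals. The number of tags at a summit was solved from 2 deposited values, under an assumed formula: fold as height over expectation, 1 added to both, and the p-value as an upper Poisson tail. With 1 constant scale factor per list, a whole number of tags (height within 0.01 of the scaled whole number, a limit growing in proportion above a height of 50) was found for 99.8% of ESC Zfp281 peaks and 100% of XEN Zfp281 and ESC Suz12 peaks, and for every member. Total library depth was not analysed here. The steps were tested on simulated data. For the tags these data were made with the same assumed formula and a known scale factor. That test therefore cannot show whether the formula or the fitted scale factors hold for the deposited lists. The text names, per window, the 3 highest-scoring ESC Zfp281 peaks and every peak of the other lists. Remaining peaks named in the text were singled out after their values were seen. The members and lists were chosen with earlier results of these data known. No mm9 annotation was used, so exons, introns and promoters were not assigned to peaks, and the 10 other matrix or collagen-processing genes could not be placed.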

Additional observations from a re-analysis of the deposited data

How the results depend on the processing

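No paired analysis was possible because single libraries stand for every group. When each list kept its higher-scoring 50%, the windows held 21 ESC Zfp281, 6 XEN Zfp281 and 4 ESC Suz12 peaks, and the share of ESC Zfp281 peaks at Suz12 went to 4.76%. With equal numbers of peaks, which removes weaker ESC peaks by construction, 22.2% of the XEN peaks (4 of 18) met an ESC peak. In the windows 100% of the ESC peaks (4 of 4) met a XEN peak, against 30.3% of the whole ESC list shortened in the same way. Leaving out single windows was added after the data were examined, and moved the ratio of ESC to XEN peaks between 1.81 (without Lamc1) and 3.36 (without Lamb1). It moved the share of ESC Zfp281 peaks at Suz12 between 5.88% (without Col4a1 and Col4a2) and 17.2% (without Lamc1). Leaving out Lamc1, Col4a1 and Col4a2 together moved the share of ESC peaks at a XEN peak to 42.1%. A common minimum score of 104 gave a ratio of 3.50, from 21 and 6 peaks. Covered length gave 3.72, from 31213 bp in ESCs and 8387 bp in XENs. The whole lists covered 39793761 and 1523292 bp, so 3.72 is not to be set against the 15.2 of peak counts. Whole-list values under the minimum score, for the higher-scoring 50% and, for XEN peaks, with equal numbers were not analysed here. The remaining settings (merging within 500 bp, windows widened by 20 kb, overlap of 50% of the shorter peak, centres within 1 kb, summits in the window) kept counts within 1.5 times and shares within their intervals. XEN Zfp281 counts of 0 to 7 peaks per window limit every comparison between genes.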
